A study of Caenorhabditis elegans with 9 samples.

Results

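Each larval stage of Caenorhabditis elegans ends with a molt, in which the epidermis secretes a new cuticle and the old one is shed. Nuclear receptors and other regulators pulse once per cycle and drive waves of effector genes, among them matrix proteins, collagens, proteases that cut the old cuticle and protease inhibitors that restrain them. The adult no longer molts. A set of 10 such genes was compared across inner nuclear membrane mutants. They were chosen by name, of 43901 loci in the expression table, as regulators (nhr-23, nhr-25, lin-42) or effectors (mlt-8, mlt-9, mlt-10, mlt-11, nas-36, nas-37, bli-5) of molting.

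The libraries measured poly-A RNA from whole worms labelled as young adults. About 40000 synchronized L1 larvae per culture were grown at 20 °C for 53 h in liquid medium with 1 mM IPTG and feeding bacteria, which made dsRNA of either emr-1 or, as control, 185 bp of plasmid sequence. Emerin (EMR-1) and LEM-2 are integral proteins of the inner nuclear membrane. The 4 groups were wild type N2 (WT, 3 libraries), strain BN20 with the deletion emr-1(gk119) (the emr-1 mutant, 2 libraries), strain BN19 with the deletion lem-2(tm1582) (the lem-2 mutant, 2 libraries), and BN19 worms with lem-2(tm1582) fed for emr-1(RNAi) (the RNAi libraries, 2). By these labels the last 2 groups share the lem-2 deletion. The methods of the study likewise describe emr-1 RNAi of BN19 worms with lem-2(tm1582). Their list of sequenced samples, however, names a strain BN24, which no label carries and which is not explained. The labels do not spell out which bacteria each of the first 3 groups was fed. Nothing in the labels ties the replicates to separate cultures, so p-values measure the spread between these libraries, which may be technical. In whole-worm RNA, fewer cells of a type and less RNA per cell cannot be told apart.

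Values are median read coverage per base of a transcript, averaged over the transcripts of a locus, so levels can be compared between genes. The number of reads per library is unknown, and 41.3% to 46.9% of transcript rows were at 0 in a library. All changes are log2 differences of coverage + 1 with the standard error (SE) from limma, fitted to the 19567 loci whose coverage averaged 1 or more, and a locus was called at a Benjamini-Hochberg adjusted p under 0.05. All 10 molting genes passed that minimum, and 1 of them, nhr-25, had a mean coverage under 5. The median locus shifted by 0.01 in the emr-1 mutant, 0.06 in the lem-2 mutant and 0.35 in the RNAi libraries against WT, and changes are to be read against these shifts. With so few libraries an exact two-sided rank-sum test of a single gene could not go below p = 0.2 for 3 against 2.

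Coverage of the targeted genes checked the labels only in part. Emr-1 stood at 52.1, 44.6 and 60.5 in WT, at 0 and 1.5 in the emr-1 mutant, and at 44.5 and 44.4 in the lem-2 mutant. The RNAi libraries had it at 135 and 73.5, above every WT library, although these are labelled as knockdowns. The feeding bacteria expressed dsRNA of the whole emr-1 cDNA, and the part of such RNA in this coverage was not tested. Lem-2 stood at 32.2, 29.3 and 39.0 in WT, 54 and 53.3 in the lem-2 mutant, and 28.9 and 30.5 in the RNAi libraries. In the emr-1 mutant, whose label names no lem-2 deletion, it was lowest, at 16.1 and 23.8 (-0.73 ± 0.20 against WT, limma adjusted p = 0.0481). Of the groups labelled with the deletion, the lem-2 mutant lay above WT and the RNAi libraries differed from WT by -0.16 ± 0.20, not called. These 2 groups also differed from each other, with the RNAi libraries lower by -0.83 ± 0.22 (adjusted p = 0.0445), and the cause was not tested. Transcript coverage thus identified the emr-1 mutant libraries but neither the knockdown nor the lem-2 deletion. The study grew part of the doubly depleted culture on and reports the expected embryonic lethality. It took this as evidence that the RNAi was effective. Directions given for the lem-2 mutant rest on its label, and those for the RNAi libraries on their label and this report. The 5 epidermal markers (lin-26, elt-3, ajm-1, dlg-1 and vab-10) were detected in every library, with a summed coverage of 117 to 139 in WT, 114 to 144 in the emr-1 mutant, 104.4 to 132 in the lem-2 mutant and 129 to 137 in the RNAi libraries. The epidermis carries out the molt, and these ranges overlapped between all groups. The largest part of the WT sums was lin-26, at 67.6, 80.6 and 58.6. In the RNAi libraries against WT, lin-26 was called lower (-0.79, limma adjusted p = 0.0463, beside 12% of all loci). Ajm-1 (0.80, adjusted p = 0.0103) and dlg-1 (0.84, adjusted p = 0.0166) were called higher there (26.4% of loci), so the sum joins opposite changes.

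Molting genes were low in wild type and higher in the mutants for most of the list. Of the 10 genes, 8 had their lowest group mean in WT, and 7 of these followed 1 order, with WT lowest, the lem-2 mutant next and the other 2 groups above. Against WT, 6 of 10 were called higher in the emr-1 mutant, where 10.3% of all tested loci were called higher and 6.27% lower. None was called in the lem-2 mutant, where 0.0358% of loci were called higher and 0.0102% lower. Of the 10, 8 were called higher and 1 lower in the RNAi libraries, where 26.4% of loci were called higher and 12% lower. Without a test, all libraries of the emr-1 mutant lay above all of WT for 7 genes (22.1% of loci) and below for none (19.5%), and the RNAi libraries lay above for 8 (41.8%) and below for 1 (19.2%). The median change of the 10 genes was 2.07, 0.99 and 2.42 in the 3 comparisons, which share the WT libraries.

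**Figure D1:**
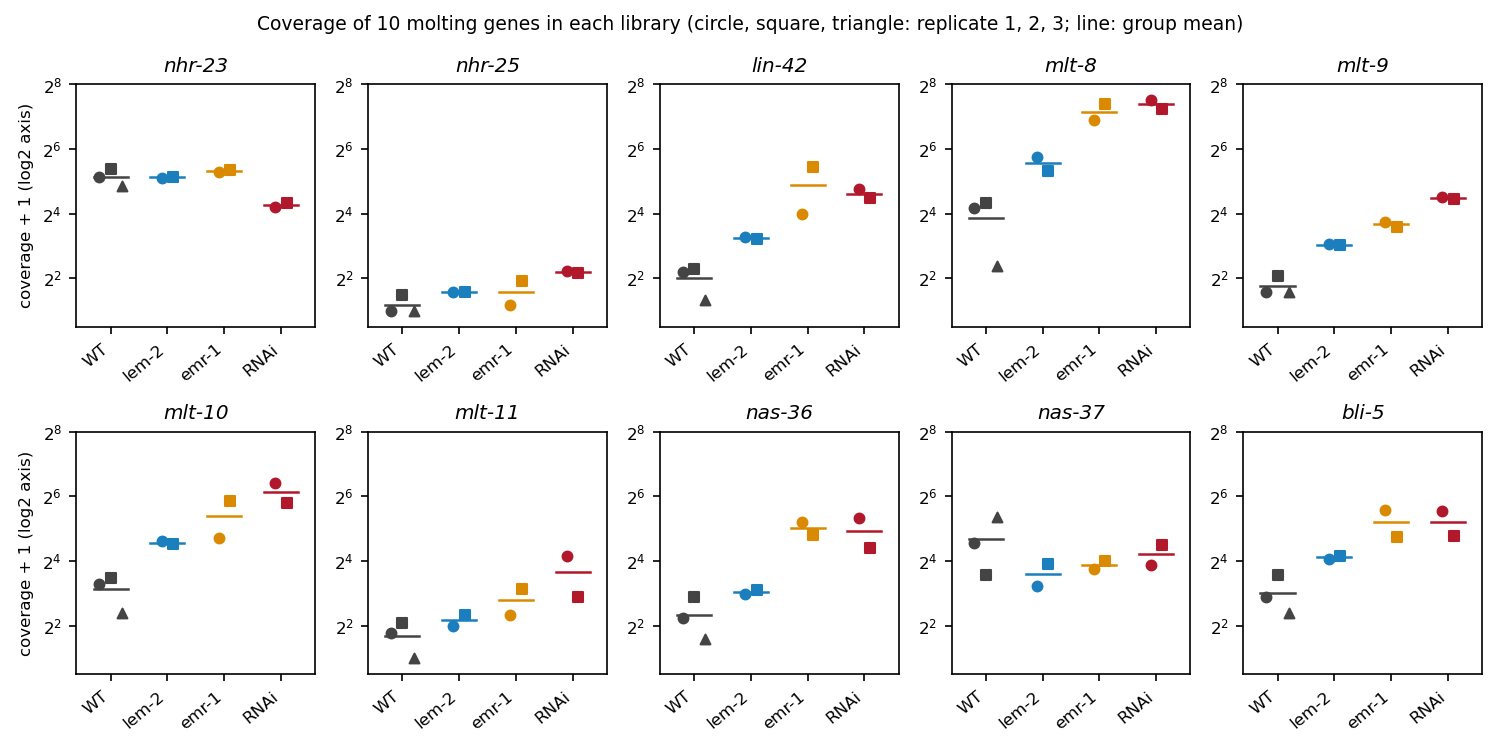
Coverage + 1 on a log2 axis for each of the 10 molting genes, 1 point per library and a line at the group mean. Groups are WT, each single mutant and RNAi, for emr-1(RNAi) lem-2(tm1582). For mlt-8 the WT points lie between 4.22 and 19.3 and the RNAi points at 183 and 152, whereas nhr-23 is lowest in the RNAi libraries.

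Among the regulators, nhr-23 (C01H6.5) was the one that fell. It encodes a nuclear receptor of the ROR family that is required for every larval molt, and lies on chromosome I at 7214745 to 7221299 on the plus strand (WBcel235). Its coverage was 34.1, 41.1 and 28.2 in WT, 38.4 and 40.2 in the emr-1 mutant, 33.5 and 34.1 in the lem-2 mutant, and 17.3 and 19.3 in the RNAi libraries. Both RNAi libraries lay below all 7 others. The change in the RNAi libraries was -0.86 ± 0.18 against WT (adjusted p = 0.00933), -0.85 ± 0.20 against the lem-2 mutant (adjusted p = 0.031) and -1.06 ± 0.20 against the emr-1 mutant (adjusted p = 0.0257). In the emr-1 mutant and the lem-2 mutant it differed from WT by 0.20 ± 0.18 and -0.01 ± 0.18, neither called.

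The fall of nhr-23 was not even over its 6 transcript rows, which share exons and so are not separate measurements. Transcripts C01H6.5c and C01H6.5d had the same values in every library and stood at 33.1, 39.1 and 27.3 in WT and at 10.5 and 16.7 in the RNAi libraries, a change of -1.24 ± 0.23 (adjusted p = 0.0055 among transcript rows). Transcript C01H6.5a changed by -1.10 ± 0.22, and C01H6.5b and C01H6.5f by -0.81 ± 0.18. Transcript C01H6.5e stood at 26.8 and 27.0 in the RNAi libraries, below all 3 WT values, and changed by -0.28 ± 0.18 (adjusted p = 0.264). Where the highest transcript row stood for the locus instead of the mean, the change was -0.39 against WT (adjusted p = 0.119) and the call was lost. It was also lost without replicate 1 of the RNAi libraries (-0.79, adjusted p = 0.0657).

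Nhr-25 (F11C1.6, X: 13008493 to 13013964, plus strand) encodes a nuclear receptor related to fly FTZ-F1 that acts in epidermal development and molting. Its coverage was 1.00, 1.81 and 1.00 in WT, 1.25 and 2.75 in the emr-1 mutant, 2.00 and 2.00 in the lem-2 mutant, and 3.67 and 3.50 in the RNAi libraries. The level was the lowest of the 10 genes in each group, and close to 1 in WT, where coverage moves in coarse steps. It rose by 1.03 ± 0.28 in the RNAi libraries against WT (adjusted p = 0.0221). With quantile normalization repeated on the locus values, which brings the median locus from 0.35 to -0.03, the change was 0.59 (adjusted p = 0.198). The call was also lost without WT 1 (0.95, adjusted p = 0.0624), without WT 3 (0.95, adjusted p = 0.0553) and without either RNAi library (adjusted p = 0.101 without replicate 1 and 0.0787 without replicate 2).

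Lin-42 (F47F6.1, II: 1233236 to 1252359, minus strand) is the C. elegans relative of the clock gene period and sets the timing of larval development and molts. It stood at 3.61, 3.91 and 1.5 in WT, 14.8 and 42.8 in the emr-1 mutant, 8.69 and 8.26 in the lem-2 mutant, and 26.03 and 21.3 in the RNAi libraries. Every mutant library was above every WT library, and the emr-1 mutant replicates differed 2.90-fold from each other. The change against WT was 2.78 ± 0.47 in the emr-1 mutant (adjusted p = 0.00989) and 2.68 ± 0.47 in the RNAi libraries (adjusted p = 0.00468). In the lem-2 mutant it was 1.30 ± 0.47 (adjusted p = 0.239). All 3 transcript rows moved in the same direction in the RNAi libraries, by 3.20 ± 0.52 for F47F6.1a, 2.15 ± 0.47 for F47F6.1b and 1.68 ± 0.35 for F47F6.1c. Rows of a locus may share exons, so these are not taken as separate measurements. The row F47F6.1a had the highest values, at 52.7 and 46.3 in the RNAi libraries and 6.33, 6.44 and 2.00 in WT.

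**Figure D2:**
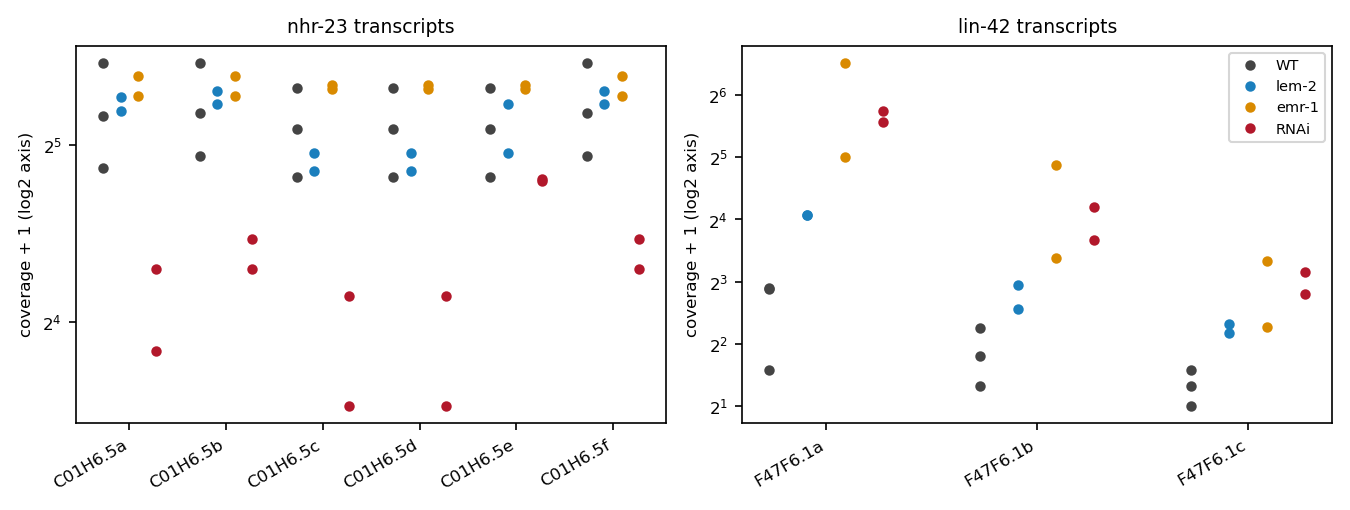
Coverage + 1 on log2 axes for the 6 nhr-23 and 3 lin-42 transcript rows, 1 point per library, coloured by group (WT, each single mutant, and RNAi for emr-1(RNAi) lem-2(tm1582)). The RNAi points are lowest in all nhr-23 rows but nearest to WT in C01H6.5e, and the 3 lin-42 rows rise together.

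Of the effectors named after a molting phenotype, mlt-8 had the largest change. Mlt-8 (W08F4.6, II: 569210 to 572110, minus strand) stood at 16.97, 19.3 and 4.22 in WT, 117 and 167 in the emr-1 mutant, 53.5 and 38.6 in the lem-2 mutant, and 183 and 152 in the RNAi libraries. The 4 groups did not overlap except for the emr-1 mutant and the RNAi libraries, although WT itself spanned a 4.57-fold range. It rose by 3.51 ± 0.55 in the emr-1 mutant (adjusted p = 0.00829) and by 3.76 ± 0.55 in the RNAi libraries (adjusted p = 0.00272), which is 13.5-fold on the scale of coverage + 1. The change in the lem-2 mutant was 1.91 ± 0.55 (adjusted p = 0.17).

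Mlt-9 (F09B12.1, X: 15101786 to 15107797, minus strand) differed little between the replicates of each mutant group. It stood at 2.00, 3.22 and 2.00 in WT, 12.4 and 11.1 in the emr-1 mutant, 7.33 and 7.17 in the lem-2 mutant, and 21.9 and 20.9 in the RNAi libraries. No 2 groups overlapped. The rise against WT was 1.93 ± 0.22 in the emr-1 mutant (adjusted p = 0.00329) and 2.73 ± 0.22 in the RNAi libraries (adjusted p = 0.000635), the smallest adjusted p among the 10 genes. In the lem-2 mutant the change was 1.29 ± 0.22 (unadjusted p = 0.000486, adjusted p = 0.106).

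Mlt-10 (C09E8.3, II: 546705 to 552032, plus strand) founds a family of nematode proteins made in the epidermis during molts and is used as a reporter of the molting cycle. It stood at 8.78, 10.1 and 4.22 in WT, 24.97 and 57.4 in the emr-1 mutant, 23.4 and 22.1 in the lem-2 mutant, and 84.9 and 54.6 in the RNAi libraries. Every mutant library was above every WT library, while the emr-1 mutant and the RNAi libraries overlapped. The rise was 2.24 ± 0.44 in the emr-1 mutant (adjusted p = 0.0165) and 3.06 ± 0.44 in the RNAi libraries (adjusted p = 0.00251), against 1.52 ± 0.44 in the lem-2 mutant (adjusted p = 0.168). Of its 2339 exonic bases, 125 overlap other genes, lips-7 and T27A1.3, which lie on the same strand.

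Among the protease inhibitors, mlt-11 (W01F3.3, V: 20667205 to 20678537, plus strand) encodes a large protein with Kunitz domains, the fold of many serine protease inhibitors. Its coverage was 2.44, 3.22 and 1.00 in WT, 3.99 and 7.82 in the emr-1 mutant, 3.00 and 4.05 in the lem-2 mutant, and 16.9 and 6.44 in the RNAi libraries. The RNAi replicates differed 2.62-fold, the widest gap of any molting gene in that group. The change in the RNAi libraries was 1.91 ± 0.48 (adjusted p = 0.0186), and 1.28 without replicate 1 (adjusted p = 0.138). In the emr-1 mutant both libraries lay above WT with a change of 1.11 ± 0.48 (adjusted p = 0.16), and the lem-2 mutant overlapped WT.

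Bli-5 (F45G2.5, III: 13427640 to 13429768, minus strand), another gene for a protein with a Kunitz domain, whose loss gives a blistered adult cuticle, stood at 6.33, 10.7 and 4.22 in WT. It stood at 46.3 and 25.8 in the emr-1 mutant, at 15.8 and 16.8 in the lem-2 mutant, and at 45.5 and 26.1 in the RNAi libraries. The lem-2 mutant libraries lay above all of WT and below the other mutants. The rise against WT was 2.22 ± 0.41 in the emr-1 mutant (adjusted p = 0.0139) and 2.21 ± 0.41 in the RNAi libraries (adjusted p = 0.00593), and the last was lost without replicate 1 of the RNAi libraries (1.83, adjusted p = 0.0615). The gene shares 82 of its 747 exonic bases with its antisense neighbour cope-1.

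The 2 astacin metalloproteases, secreted enzymes needed to open and shed the old cuticle, went apart. Nas-36 (C26C6.3, I: 7527224 to 7531715, plus strand) stood at 3.67, 6.44 and 2.00 in WT, 35.7 and 26.7 in the emr-1 mutant, 6.89 and 7.61 in the lem-2 mutant, and 39.6 and 19.9 in the RNAi libraries. It was high in the emr-1 mutant and RNAi libraries and lay just above WT in the lem-2 mutant. The rise was 2.76 ± 0.43 in the emr-1 mutant (adjusted p = 0.00775) and 2.63 ± 0.43 in the RNAi libraries (adjusted p = 0.00371), with 0.81 ± 0.43 in the lem-2 mutant (adjusted p = 0.424).

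Nas-37 (C17G1.6, X: 9944844 to 9949063, minus strand) stood at 22.3, 10.7 and 40.3 in WT, 12.4 and 14.8 in the emr-1 mutant, 8.44 and 13.9 in the lem-2 mutant, and 13.8 and 21.7 in the RNAi libraries. All 3 mutant groups fell inside or overlapped the WT range, which was 3.76-fold wide. The changes were -0.62 ± 0.51, -0.92 ± 0.51 and -0.29 ± 0.51 in the same order, none of them called, and the SE does not resolve changes of this size.

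**Figure D3:**
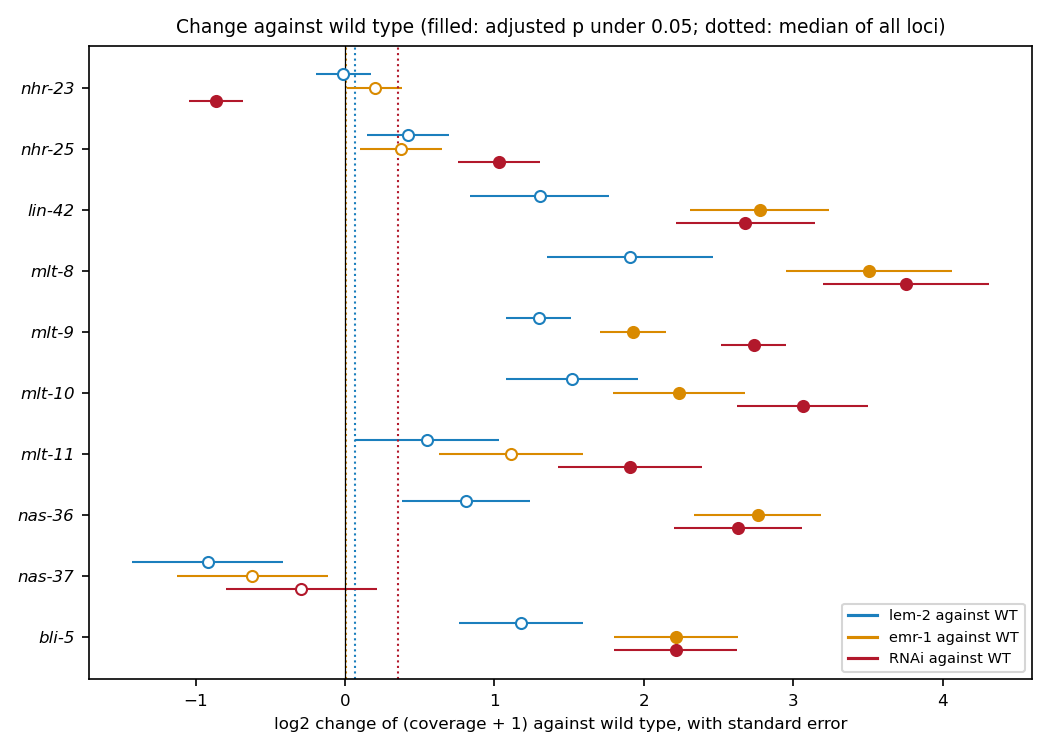
Log2 change of coverage + 1 against WT with its SE for the 10 molting genes in the lem-2 mutant, the emr-1 mutant and the RNAi libraries (emr-1(RNAi) lem-2(tm1582)). Filled points have an adjusted p under 0.05, and dotted lines mark the median of all tested loci, which is 0.35 in the RNAi libraries. All lem-2 mutant points are open, and mlt-8 lies farthest to the right in all 3 comparisons.

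The calls in the emr-1 mutant changed with the libraries in the fit. Fitted with WT alone, the 6 changes were the same size but only mlt-9 was called, and the other 5 had adjusted p-values of 0.0527 to 0.0837. Without replicate 1 of the emr-1 mutant nas-36 and bli-5 were no longer called, and without replicate 2 mlt-8 and mlt-10. Of the 9 calls in the RNAi libraries 5 were left without replicate 1, namely lin-42, mlt-8, mlt-9, mlt-10 and nas-36. With quantile normalization repeated, 7 molting genes were higher and 1 lower in the RNAi libraries, while over all loci the split of calls went from 5164 higher and 2354 lower to 3213 higher and 3534 lower.

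The absence of calls in the lem-2 mutant did not mean that its libraries sat within WT. For 7 of the 10 genes both lem-2 mutant libraries were above all 3 WT libraries (nhr-25, lin-42, mlt-8, mlt-9, mlt-10, nas-36 and bli-5), compared with 20.8% of all tested loci, and for none were both below (12%). At an unadjusted p under 0.05, 5 of the 10 genes differed in limma (3064 of 19567 loci did), and in each of these 5 the change was upward. The lem-2 mutant replicates were also the most alike, with a median absolute difference of 0.08 on the log2 scale over the 10 genes against 0.24 over all loci.

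The RNAi libraries were also compared with the lem-2 mutant, which by label shares their strain and lacks the emr-1 RNAi. The labels do not spell out which bacteria the lem-2 mutant was fed, and lem-2 coverage differed between these groups, as given above. The strain BN24 named above remains unexplained. Mlt-9 rose by 1.44 ± 0.24 (adjusted p = 0.0136), nas-36 rose by 1.82 ± 0.47 (adjusted p = 0.0395) and nhr-23 fell as given above, so that 2 of 10 were called higher (10.2% of all loci) and 1 lower (6.27%). The ranges of the 2 groups did not overlap for 9 genes, with 8 higher (41.9% of loci) and 1 lower (21.8%). Mlt-8 changed by 1.85 ± 0.61 (adjusted p = 0.0769) and mlt-10 by 1.54 ± 0.48 (adjusted p = 0.0672). None of the 3 calls was kept when any of the 4 libraries of these groups was left out.

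Against the emr-1 mutant, nhr-23 was the only one of the 10 genes called in the RNAi libraries, in the lower direction (2.53% of loci were called lower and 7.13% higher). The ranges did not overlap for 3 genes, with 2 higher (35.8% of loci) and 1 lower (16.1%). Mlt-9 was one of these, higher in both RNAi libraries, by 0.81 ± 0.24 (adjusted p = 0.0763). The order of these 2 groups was not resolved for lin-42 (-0.10 ± 0.51), nas-36 (-0.13 ± 0.47), bli-5 (0.00 ± 0.45) or mlt-8 (0.25 ± 0.61), whose libraries overlapped. The nhr-23 call was lost without any 1 of the emr-1 mutant, the lem-2 mutant or RNAi libraries, with adjusted p-values of 0.0503 to 0.129.

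Between the single mutants no molting gene was called (0.746% of loci were called higher and 0.358% lower in the emr-1 mutant), although 7 of 10 had both emr-1 mutant libraries above (18.4% of loci) and none had both below (24.1%), and 4 of 10 differed at an unadjusted p under 0.05 in limma. Nas-36 was 1.95 ± 0.47 higher in the emr-1 mutant (adjusted p = 0.0983), lin-42 1.47 ± 0.51 (adjusted p = 0.196), mlt-8 1.6 ± 0.61 (adjusted p = 0.23) and mlt-9 0.63 ± 0.24 (adjusted p = 0.231). The interaction, which sets the step between the lem-2 mutant and the RNAi libraries against the step between WT and the emr-1 mutant, called none of the 10 in limma (0.261% of loci higher, 0.184% lower) and 1 at an unadjusted p under 0.05. That gene was nhr-23, at -1.05 ± 0.27 (unadjusted p = 0.00535, adjusted p = 0.117).

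Replicates of WT also differed in these genes. WT 3 had the lowest or tied lowest coverage for 9 of the 10 genes and WT 2 the highest for 9, with nas-37 reversed (WT 3 highest at 40.3, WT 2 lowest at 10.7). The median absolute difference between WT 2 and WT 3 was 1.08 over the 10 genes and 0.35 over all loci. Among the emr-1 mutant libraries 7 of 10 genes were higher in replicate 2, with a median absolute difference of 0.62 against 0.40 over all loci, and among the RNAi libraries 2 of 10 were higher in replicate 2. The highest group mean was 12.4-fold the lowest for mlt-8, 9.57-fold for lin-42, 9.06-fold for mlt-10 and 8.88-fold for mlt-9, compared with a range within WT of 4.57-fold, 2.60-fold, 2.39-fold and 1.61-fold.

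Most genes of 2 chosen sets of cuticle collagens were called higher in the emr-1 mutant and in the RNAi libraries, and none in the lem-2 mutant. The adult collagen col-19, listed with the adult genes below, was called lower in the emr-1 mutant (-0.73) and in the RNAi libraries (-0.95). The furrow collagens dpy-2, dpy-3, dpy-7, dpy-8, dpy-9 and dpy-10, which are made early in each cuticle cycle, had a summed coverage of 15.9 to 36.3 in WT, 111 to 167 in the emr-1 mutant, 80.0 to 102 in the lem-2 mutant and 307 to 374 in the RNAi libraries. All 6 rose in the emr-1 mutant (median 2.25, where 10.3% of loci were called higher) and in the RNAi libraries (median 3.62, 26.4% of loci), and none was called in the lem-2 mutant (median 1.74, 0.0358% of loci). Without replicate 2 of the emr-1 mutant, or fitted with WT alone, 3 of the 6 were called in that group, and 2 were on coverage without a log. Dpy-7 rose most in the RNAi libraries, by 3.92 (adjusted p = 0.000408), followed by dpy-3 (3.81), dpy-8 (3.74) and dpy-9 (3.51). In WT 3, the library with the lowest molting gene values, the sum was the lowest at 15.9.

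Another set of 6 collagens held bli-1, bli-2 and bli-6, of which bli-1 and bli-2 form the struts of the adult cuticle, and rol-6, sqt-1 and sqt-3, which shape the body. Their sum was 85.9 to 293 in WT, with WT 3 lowest, 1732 to 2735 in the emr-1 mutant, 790 to 846 in the lem-2 mutant and 1582 to 2172 in the RNAi libraries. In the emr-1 mutant 5 of 6 rose (median 3.47, beside 10.3% of loci called higher), all but bli-1 (1.31, adjusted p = 0.103), led by bli-2 (3.66) and sqt-3 (3.59). All 6 rose in the RNAi libraries (median 3.64, beside 26.4% of loci), led by sqt-1 (3.80) and bli-2 (3.72). None was called in the lem-2 mutant (median 2.11). Fitted with WT alone, none of the 6 was called in the emr-1 mutant, at a median of 3.47, and without its replicate 2 only 1 was.

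Genes of the reproductive adult moved the other way. The list held the yolk protein genes vit-1 to vit-6, the oocyte yolk receptor rme-2 and the adult collagen col-19, with a summed coverage of 12901 to 18733 in WT (highest in WT 3), 2436 to 2663 in the emr-1 mutant, 8041 to 8486 in the lem-2 mutant and 4821 to 6928 in the RNAi libraries. All 8 fell in the emr-1 mutant (median -2.93, where 6.27% of loci were called lower) and in the RNAi libraries (median -1.40, 12% of loci), and none was called in the lem-2 mutant (median -0.72, 0.0102% of loci). Without replicate 1 of the RNAi libraries 5 of the 8 were called there. Vit-3 fell by 5.25 in the emr-1 mutant (adjusted p = 0.000157), vit-4 by 4.34, vit-1 by 3.82 and vit-5 by 3.05. In the RNAi libraries rme-2 fell by 2.42 (adjusted p = 0.000387), vit-3 by 1.99, vit-4 by 1.70 and vit-2 by 1.54. The vit genes are near-identical in part, so reads may be split between them. Of 5 germ line markers (glp-1, gld-1, pgl-1, glh-1 and cgh-1), 4 were called lower in both of these groups (6.27% and 12% of loci), with a summed coverage of 942 to 1228 in WT, 394 to 476 in the emr-1 mutant, 771 to 979 in the lem-2 mutant and 260 to 270 in the RNAi libraries. The study reports that the doubly depleted worms reached adulthood at the normal rate, and it describes no obvious growth phenotype of the single mutants. By its methods the cultures had built up non-gravid young adults at 53 h. In these libraries stage was not measured apart from these genes, and the part of stage in the molting gene changes was not tested.

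**Figure D4:**
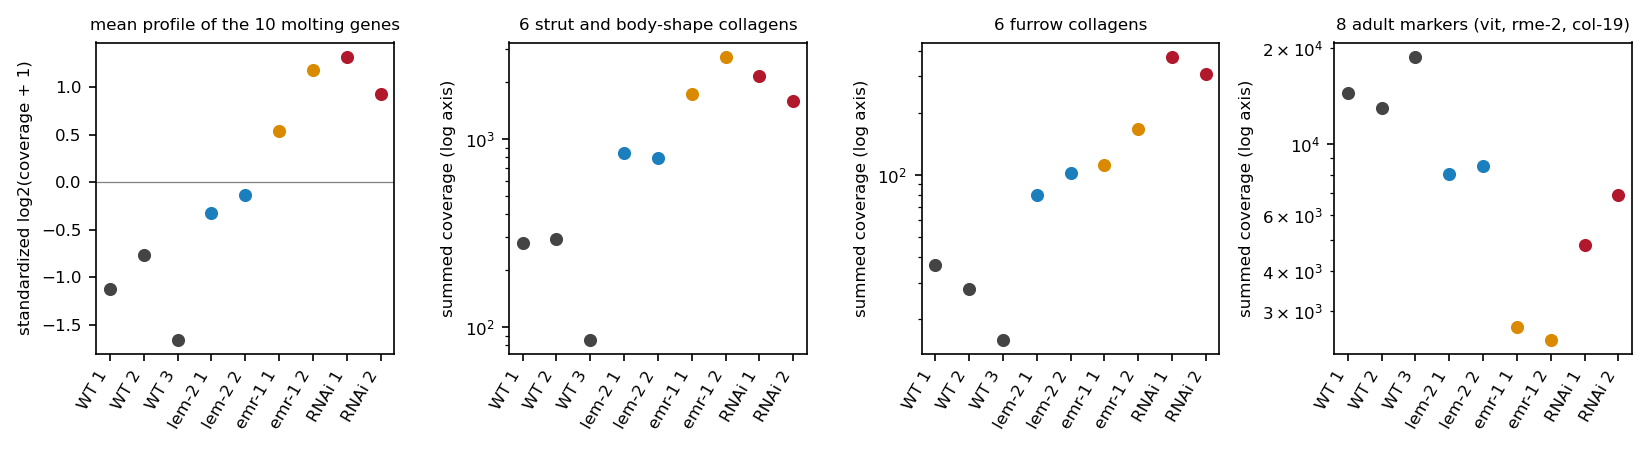
Left, mean over the 10 molting genes of log2(coverage + 1) standardized over the 9 libraries. Right, summed coverage on log axes of the 6 collagens of struts and body shape, the 6 furrow collagens and the 8 adult markers, 1 point per library, with RNAi for emr-1(RNAi) lem-2(tm1582). WT 3 has the lowest molting and collagen values and the highest adult marker sum, and the emr-1 mutant the lowest adult marker sums.

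Markers of the other tissues were all detected in every library. Intestine markers (elt-2, ges-1, elt-7 and act-5) summed to 914 to 1118 in WT, 402 to 625 in the emr-1 mutant, 824 to 873 in the lem-2 mutant and 836 to 880 in the RNAi libraries. Most of that sum was the actin gene act-5, the only one of the 4 called in the emr-1 mutant (-1.16, adjusted p = 0.0118), where elt-2 stood at -0.05, ges-1 at 0.05 and elt-7 at 0.70. In the RNAi libraries elt-7 was the only one called, higher by 1.63 (adjusted p = 0.00337). Body wall muscle markers (myo-3, unc-54, unc-15 and hlh-1) summed to 325 to 515 in WT and 693 to 932 in the RNAi libraries, with 480 to 640 in the emr-1 mutant and 641 to 733 in the lem-2 mutant. Most of that sum was unc-54 and unc-15. All but myo-3 were called higher in the RNAi libraries (26.4% of all loci), and unc-15 alone in the emr-1 mutant (10.3%). Pharynx markers (myo-2, myo-1 and pha-4) summed to 25.7 to 86.9 in WT, 88.7 to 107 in the emr-1 mutant, 63.9 to 65.0 in the lem-2 mutant and 81.0 to 172 in the RNAi libraries. Beside the same shares of all loci, myo-2 and pha-4 were called higher in the RNAi libraries and pha-4 in the emr-1 mutant. Neuron markers (unc-119, rab-3, snb-1 and unc-104) summed to 262 to 311, 195 to 236, 263 to 271 and 173 to 229 in the same order of groups. Most of that sum was snb-1, the only one of the 4 called in the RNAi libraries (-0.58, limma adjusted p = 0.0298, beside 12% of loci lower). There unc-119 stood at -0.12, rab-3 at -1.25 and unc-104 at 0.26, and none of the 4 was called in the emr-1 mutant. The part of these shifts in the molting gene changes was not tested.

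A further 13 regulators of the molting cycle were listed. Of these, 1 was called higher in the emr-1 mutant, a share no larger than the 10.3% of all loci, with a list median of 0.56. That gene was bed-3, a zinc finger gene needed for molting (2.38, adjusted p = 0.00661). None was called in the lem-2 mutant (median 0.23). In the RNAi libraries 7 rose (26.4% of all loci did), with a median of 0.72 against 0.35 over all loci, and 2 were called without replicate 1 of the RNAi libraries. The largest rises were bed-3 (2.15), peb-1 (1.54), the Grainyhead gene grh-1 (1.51) and the heterochronic zinc finger gene lin-29 (1.45). With quantile normalization repeated, 3 of the 13 were called and their median was 0.21.

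Matrix and remodelling genes rose in the emr-1 mutant and in the RNAi libraries. Of 27 genes for apical matrix proteins, peroxidases, proteases and hedgehog-related proteins, 18 were called higher and none lower in the emr-1 mutant (median 1.53, beside 10.3% and 6.27% of all loci), 0 in the lem-2 mutant (median 0.79, beside 0.0358% and 0.0102%), and 22 higher and none lower in the RNAi libraries (median 2.04, beside 26.4% and 12%). In the RNAi libraries the largest rises were the hedgehog-related genes wrt-10 (4.50), wrt-1 (3.61) and wrt-4 (3.38) and the lipocalin gene lpr-3 (3.53). In the emr-1 mutant they were wrt-10 (3.34), the inactive peptidase gene acn-1 (3.05), wrt-4 (2.91) and the astacin gene nas-7 (2.80). Fitted with WT alone, 5 of the 27 were called in the emr-1 mutant. There were 7 without its replicate 2, and 11 without its replicate 1, without WT 1, without WT 3 or on coverage without a log.

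Of 14 genes for sterol uptake, trafficking and patched-related proteins, 4 were called higher and 1 lower in the emr-1 mutant (median 0.58), where 10.3% of all loci were called higher and 6.27% lower, so that 1 of 14 lower is near the share of all loci. None was called in the lem-2 mutant (median 0.18), and 9 were higher and 1 lower in the RNAi libraries (median 1.11, beside 26.4% and 12% of loci). The 9 became 3 without replicate 1 of the RNAi libraries and 5, at a median of 0.66, with quantile normalization repeated. Largest in the RNAi libraries were the patched-related ptr-4 (3.20) and ptr-18 (2.81), the leucine-rich repeat gene pan-1 (1.98) and the kinase gene nekl-2 (1.70). In the emr-1 mutant they were ptr-18 (2.11), ptr-4 (2.09), ptr-23 (1.53) and pan-1 (1.45). The gene called lower in both was dab-1, an endocytic adaptor, at -0.88 (adjusted p = 0.0297) and -1.19 (adjusted p = 0.00464). Its call in the emr-1 mutant was lost when any 1 library was left out, other than replicate 2 of that mutant. Fitted with WT alone, none of the 14 was called in the emr-1 mutant, and without its replicate 1 and its replicate 2 the 4 called higher became 2 and 0.

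**Figure D5:**
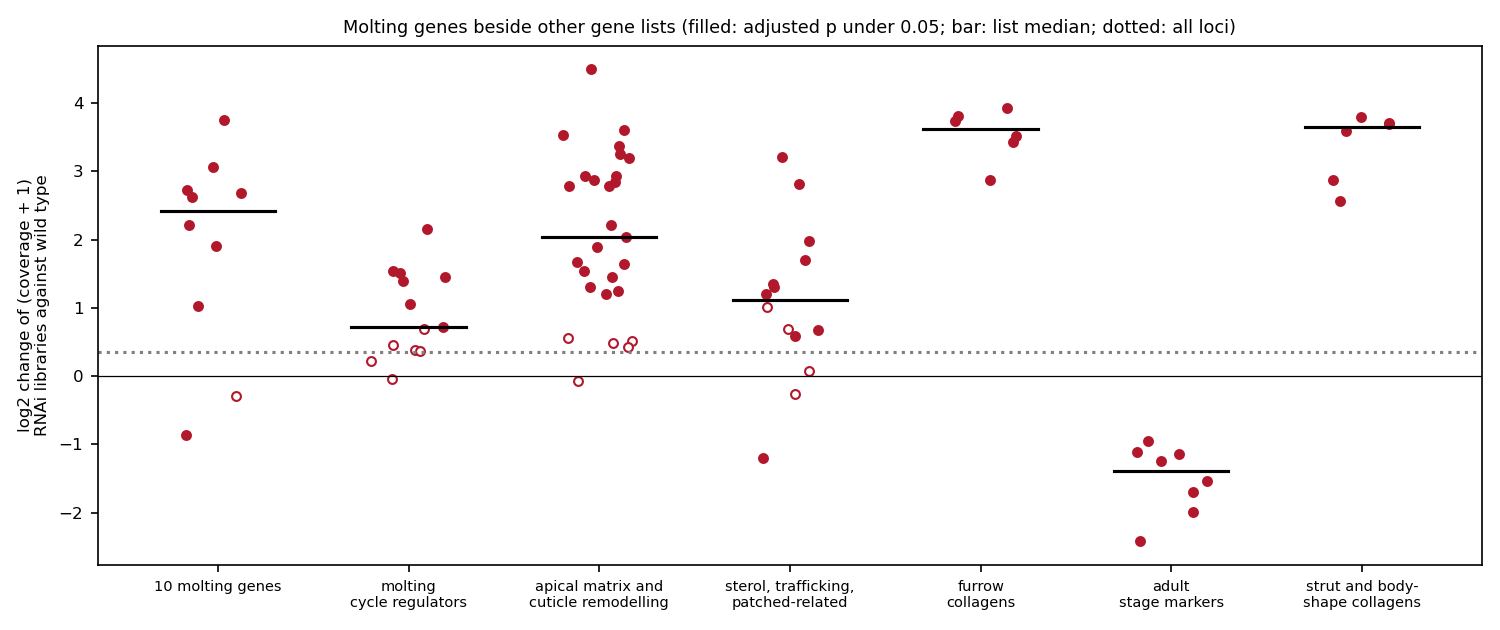
Log2 change of coverage + 1 in the RNAi libraries (emr-1(RNAi) lem-2(tm1582)) against WT for the 10 molting genes and 6 other gene lists, 1 point per gene and a bar at each list's median. Filled points have an adjusted p under 0.05 and the dotted line is the median of all loci at 0.35. Both collagen lists and most matrix genes lie above it, and all 8 adult markers lie below 0.

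The 13215 loci whose coverage averaged 5 or more, molting genes among them, were ranked by likeness to the mean profile of the 10 genes. Apart from those genes, the pattern most like it over the 9 libraries was that of F01D5.6, with a mean squared difference of 0.0122 between standardized profiles. Next came lgc-27 (0.0141), F09F9.2 (0.0165), ZK84.1 (0.0169), the collagen gene col-110 (0.0221), the chitinase-like gene cht-4 (0.0222), abu-12 (0.0239) and osm-7 (0.0252), where the median locus was at 1.67. F01D5.6 stood at 3.11, 4.33 and 1.00 in WT, 19.1 and 25.9 in the emr-1 mutant, 7.44 and 7.61 in the lem-2 mutant, and 32.3 and 25.3 in the RNAi libraries. Of the 10 molting genes, lin-42 lay nearest to their own mean (0.0389), then mlt-8 and mlt-10 (both 0.045), while nhr-23 (2.74) and nas-37 (2.78) were farther from it than the median locus.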

How the data were processed

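The 9 poly-A RNA libraries from whole C. elegans (4 groups of 3, 2, 2 and 2) were used as deposited. Per the study's methods and processing notes, the authors aligned reads with TopHat to the WS231 genome, took the median base coverage of each exon with SAMtools and Rsamtools, quantile-normalized these exon values across libraries and used the median exon as the transcript's value. This deposited coverage signal is not a read count, and read numbers per library were not given in the sources used here, so no counting interval is stated. The library kit is not described as strand-specific.

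The 49395 transcript rows were averaged to 43901 loci, and 48951 rows (99.1%) matched the WBcel235 annotation, which supplied names and positions. No coordinates were carried from WS231. The 10 molting genes comprised 27 rows. The 19567 loci whose coverage averaged 1 or more entered limma 3.58.1 (R 4.3.3). The fit took log2(coverage + 1) of the 9 libraries, a mean-variance trend and two-sided Benjamini-Hochberg adjusted p-values. It was tested on simulated data. The study's own statistic (SAM) was not run, and limma on coverage without a log was the nearest alternative.

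Alternatives were other pseudocounts (0.1 and 5), no minimum or a minimum of 5, the highest transcript row of a locus, only the compared groups, no trend, no log, repeated quantile normalization, a replicate block, leaving out each library and, chosen after seeing the data, 1 value per transcript row. The 10 genes and the gene and marker lists were chosen with earlier results of these data known. Beyond the 10 genes, names were given to the targeted genes, the 8 loci most alike in profile, and up to 4 called genes per list and direction with the largest change, plus any called against the majority of the list. Bli-1 was named as the single exception of its list after its values were seen. Promoter and protein sequences were not analysed here.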

Additional observations from a re-analysis of the deposited data

Results flagged for a closer look

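Of the lists described above, 3 yolk protein genes had an interaction that passed the test, meaning that the step between the lem-2 mutant and the RNAi libraries differed from that between WT and the emr-1 mutant. The interaction was 3.25 ± 0.38 for vit-1 (limma adjusted p = 0.0351), 4.6 ± 0.38 for vit-3 (adjusted p = 0.00783) and 3.58 ± 0.34 for vit-4 (adjusted p = 0.0122), on the log2 scale of coverage + 1. These genes fell in the emr-1 mutant by more than in the RNAi libraries. None of the 10 molting genes passed this test.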

How the results depend on the processing

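Of the counts of molting genes called, the 6 in the emr-1 mutant against WT became 3 on coverage without a log and 1 with only the compared groups. The 3 between the RNAi and lem-2 mutant libraries became 5 with a minimum of 5 or a pseudocount of 5. The 1 between the RNAi and emr-1 mutant libraries became 2 without a log or with a pseudocount of 5, and 0 with the highest transcript row or with only the compared groups. The 0 between the single mutants became 1 with a minimum of 5. Leaving out each library gave 4 to 6 calls in the emr-1 mutant, 0 in the lem-2 mutant and 5 to 9 in the RNAi libraries against WT (5 without replicate 1 of the RNAi libraries). It gave 0 to 5 for the RNAi against the lem-2 mutant libraries (1 without WT 1, 5 without WT 3, 0 without any library of these groups), 0 to 1 for the RNAi against the emr-1 mutant libraries, 0 to 1 between the single mutants (1 without WT 3) and 0 for the interaction.

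No called change turned its sign. Uncalled ones that did were nhr-23 in the lem-2 mutant against WT (0.0725 with the highest row), nhr-25 between the single mutants (0.076 with the highest row), lin-42 between the RNAi and emr-1 mutant libraries (0.17 per transcript row) and the interactions of nhr-25 (-0.14) and mlt-11 (-0.0093) with quantile normalization repeated, and of mlt-9 (4.74) and mlt-10 (13.5, both in units of coverage) without a log. With a library left out, nhr-23 in the lem-2 mutant against WT ranged from -0.14 to 0.12, nas-37 in the RNAi libraries against WT from -0.76 to 0.15, and nas-37 and nhr-25 between the single mutants from -0.0292 to 0.63 and from -0.41 to 0.32. Between the RNAi and emr-1 mutant libraries mlt-8 ranged from -0.0035 to 0.50, nas-36 from -0.61 to 0.35, bli-5 from -0.41 to 0.41 and lin-42 from -0.83 to 0.64. The interactions of nhr-25 and mlt-11 ranged from -0.13 to 0.60 and from -0.38 to 0.88. The cause was not tested.

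Same-numbered libraries of different groups correlated at -0.134 to 0.0612 over 8111 loci in their deviations from the group means. With 2 libraries in each mutant group these deviations mirror each other, so the values cannot exclude a shared batch. The main fit treated the libraries as unpaired. With a replicate block, 4 molting genes were called in the emr-1 mutant and 7 in the RNAi libraries against WT, and nas-37 in the latter stood at 0.15. Only WT has a replicate 3, so the block takes up WT 3 and gives the same changes as leaving that library out. In the RNAi libraries nas-37 stood at 0.15 and nhr-25 at 0.95 in both fits. Coverage near 1 limits nhr-25 and the WT values of mlt-9 and mlt-11, and no library total was at hand to state their counting error.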
